A study of Mus musculus with 8 samples.

Results

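The ErbB receptors and their EGF-type ligands were examined in N134, a line of cultured mouse cells labelled as a tumor of pancreatic beta cells and, in the series' design text, as a pancreatic neuroendocrine tumor line. The 10 genes are the 4 receptor genes Egfr, Erbb2, Erbb3 and Erbb4 and the 6 ligand genes Egf, Tgfa, Hbegf, Btc, Areg and Ereg, chosen by symbol, and all 10 of them are among the 23309 genes of the deposited table. The 4 miR-431 libraries, numbered 5 to 8, came from actively growing N134 cells (strain C57BL/6) that overexpressed microRNA-431 and are labelled GFP-miR-431. The 4 miR-LacZ libraries, numbered 1 to 4, came from N134 cells of the same strain that overexpressed GFP-miR-LacZ and served as the control. The labels tell neither whether the cells of a group were a clone or a mixed population nor whether its 4 libraries are separate cultures. The p-values therefore set the difference between the groups only against the spread among these libraries, which may be technical. No source used here names the unit of the deposited values. They are taken as FPKM, from the values themselves and because Cufflinks is among the tools named by the submitters, that is, as fragments scaled to transcript length and to the number of mapped fragments, and values of single libraries are given in the order of their numbers.

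The ErbB receptors are tyrosine kinases of the cell surface that pair up when a ligand binds, and they signal through Ras and ERK and through PI3 kinase. Egf, Tgfa and Areg bind Egfr, while Hbegf, Btc and Ereg bind both Egfr and Erbb4. Erbb2 has no known direct ligand and acts as a partner of the other receptors, and Erbb3 has little kinase activity of its own and binds neuregulins. The ligands are made as membrane-anchored precursors that proteases release. In mouse islets Egfr supports the growth of beta cell mass, and betacellulin, the product of Btc, was found in the medium of mouse beta cell tumor cells.

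The mature strands of microRNA-431 are shown because their seeds (bases 2 to 8, in capitals), which pair with target transcripts, were searched in the 3′ UTRs of the 10 genes. Which strand the cells contained was not measured. Both are from RefSeq (GRCm38.p6, chromosome 12, plus strand, 109590459 to 109590479 for 5p and 109590502 to 109590523 for 3p).
mmu-miR-431-5p: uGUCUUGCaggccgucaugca
mmu-miR-431-3p: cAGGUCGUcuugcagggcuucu
A match to the whole 5p seed reads GCAAGAC in the transcript, and an 8mer match has an A after it. A 7mer-A1 match to 5p reads CAAGACA and is contained in the 8mer. Among the 10 genes, Egfr was the only one whose longest 3′ UTR in GENCODE M21 (6303 bases for Egfr) held a match to the whole 5p seed, and that match was an 8mer. Egfr also held 2 further 7mer-A1 matches to 5p, 1 of them a few bases before the 8mer. For 3p, none of the 10 genes held a match to the whole seed, and Egfr alone held a 7mer-A1 match, CGACCTA. The Egfr matches are shown in the transcript's sense, with the matched bases in capitals and positions counted from the first base after the stop codon.
Egfr, bases 450 to 456, 5p 7mer-A1: cagctctgcatCAAGACActtccgtggcaa
Egfr, bases 465 to 472, 5p 8mer: acacttccgtgGCAAGACAactaaatgtat
Egfr, bases 1229 to 1235, 5p 7mer-A1: tgagtgccagaCAAGACAtcagccaggcac
Egfr, bases 5317 to 5323, 3p 7mer-A1: aaggaaaacctCGACCTAttattttgactg
A 5p 8mer was present in 274 of the 10745 tested genes with a 3′ UTR (2.55%), and in 33 of 366 genes (9.02%) whose 3′ UTR was within 20% of the length of that of Egfr. At least 3 matches to CAAGACA, 8mers included, were present in 34 of the 10745 genes (0.316%). This last share covers 3′ UTRs of any length and was not taken among those near the length of that of Egfr. It therefore makes no allowance for length. The shorter Egfr transcript, of 2943 bases with a 3′ UTR of 695 bases, held 0 matches of either kind, and the deposited Egfr value joins both transcripts. The 3′ UTR of Egf held 1 5p 7mer-A1 match and that of Hbegf 1, and the other 7 genes held neither kind. These matches are descriptions of sequence, on the transcript strand, and not measured sites of binding.

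Egfr fell, and it was the only 1 called at an adjusted p below 0.05 among the 4 genes of the family that could be tested, where 29.3% of all tested genes were called. Its level was 4.56, 5.46, 5.42 and 6.59 FPKM in the miR-431 libraries, 5 to 8, against 16.5, 20.5, 24.3 and 34.5 FPKM in the miR-LacZ libraries, 1 to 4. Every miR-431 library lay below every miR-LacZ library, and the miR-LacZ libraries differed more among themselves, with a coefficient of variation of 15.1% in miR-431 and 32.3% in miR-LacZ. The means were 5.51 ± 0.834 FPKM in miR-431, against 24 ± 7.75 FPKM in miR-LacZ cells (SD, n = 4 each), so Egfr in miR-431 cells stood at 23.0% of the miR-LacZ level, 4.35-fold lower. The log2 fold change on the log2(FPKM + 1) scale was −1.90 (SE 0.194, limma adjusted p = 0.000129). Permuting the 8 levels exactly (two-sided) gave p = 0.0286, the smallest that this design allows. Among the 11807 genes tested, 1631 (13.8%) fell at this threshold, and Egfr ranked 48 from the lowest fold change. Egfr (chromosome 11, 16652205 to 16813910, mm9) overlaps no other gene of the table. RNA from a whole culture does not tell fewer Egfr-expressing cells from less Egfr RNA per cell.

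The Egfr call held in every setting that was run. Across the main test and its 19 alternatives the log2 fold change lay between −2.08 and −1.69, and the largest limma adjusted p was 0.000943. Libraries 1 and 5, 1 of each group, stood apart from the other 6 in their low values. The commonest low value times transcript length was taken as that of 1 fragment. Of low values around it, 25.3% in library 5 and 26.8% in library 1 lay within 4% of it, against 58.9% to 65.7% in the other 6. Without both, the log2 fold change of Egfr was −1.98 (SE 0.183, limma adjusted p = 0.000943), and in these libraries alone the levels were 4.56 FPKM in miR-431 library 5 and 16.5 FPKM in miR-LacZ library 1. Single markers of other cell types also differed between the groups, at low levels and in both directions. The endothelial marker Plvap rose to 1.3 to 2.81 FPKM in miR-431, against 0.44 to 0.669 FPKM in miR-LacZ libraries (limma adjusted p = 0.00182). The fibroblast marker Pdgfra, a receptor kinase for PDGF, fell to 0.285 to 0.354 FPKM in miR-431, against 1.27 to 2.28 FPKM in miR-LacZ libraries (limma adjusted p = 0.000239). All 7 fibroblast markers summed to 0.715 to 1.06 FPKM in miR-431, against 1.94 to 3.20 FPKM in miR-LacZ libraries, but without Pdgfra the sums overlapped, at 0.366 to 0.742 FPKM in miR-431, against 0.348 to 1.1 FPKM in miR-LacZ libraries, with Col3a1 at 0 in all 8. The elastase gene Cela1, an acinar marker, fell to 0.0838 to 0.318 FPKM in miR-431, against 1.09 to 3.02 FPKM in miR-LacZ libraries (limma adjusted p = 0.000662). All 9 acinar markers summed to 0.262 to 0.625 FPKM in miR-431, against 1.14 to 3.22 FPKM in miR-LacZ libraries, and without Cela1 to 0.165 to 0.307 FPKM in miR-431, against 0.0528 to 0.231 FPKM in miR-LacZ libraries, with Cela3b and Cpb1 at 0 in all 8.

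Some beta cell markers also differed between the groups. Ins1, an insulin gene, stood at 420, 395, 218 and 522 FPKM in the miR-431 libraries, 5 to 8, against 2060, 2650, 3330 and 5290 FPKM in the miR-LacZ libraries, 1 to 4 (log2 fold change −3.07, limma adjusted p = 0.000148). The miR-LacZ libraries had the same order for Ins1 as for Egfr, but the miR-431 libraries did not. In total 4 of the 12 beta cell markers were called and the rest were not, where 29.3% of all tested genes were called. Pdx1 and Nkx6-1, transcription factors of beta cells, fell (log2 fold change −0.52 for each, limma adjusted p = 0.0227 for Pdx1 and 0.00537 for Nkx6-1), and Nkx2-2, another such factor, rose (log2 fold change 0.30, limma adjusted p = 0.0106). The call of Pdx1 ended without library 2 or 5 (limma adjusted p = 0.0606 and 0.0551) and once the running median of neighbouring genes was subtracted (−0.26, limma adjusted p = 0.203). The part of these markers in the Egfr difference was not tested.

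**Figure D1:**
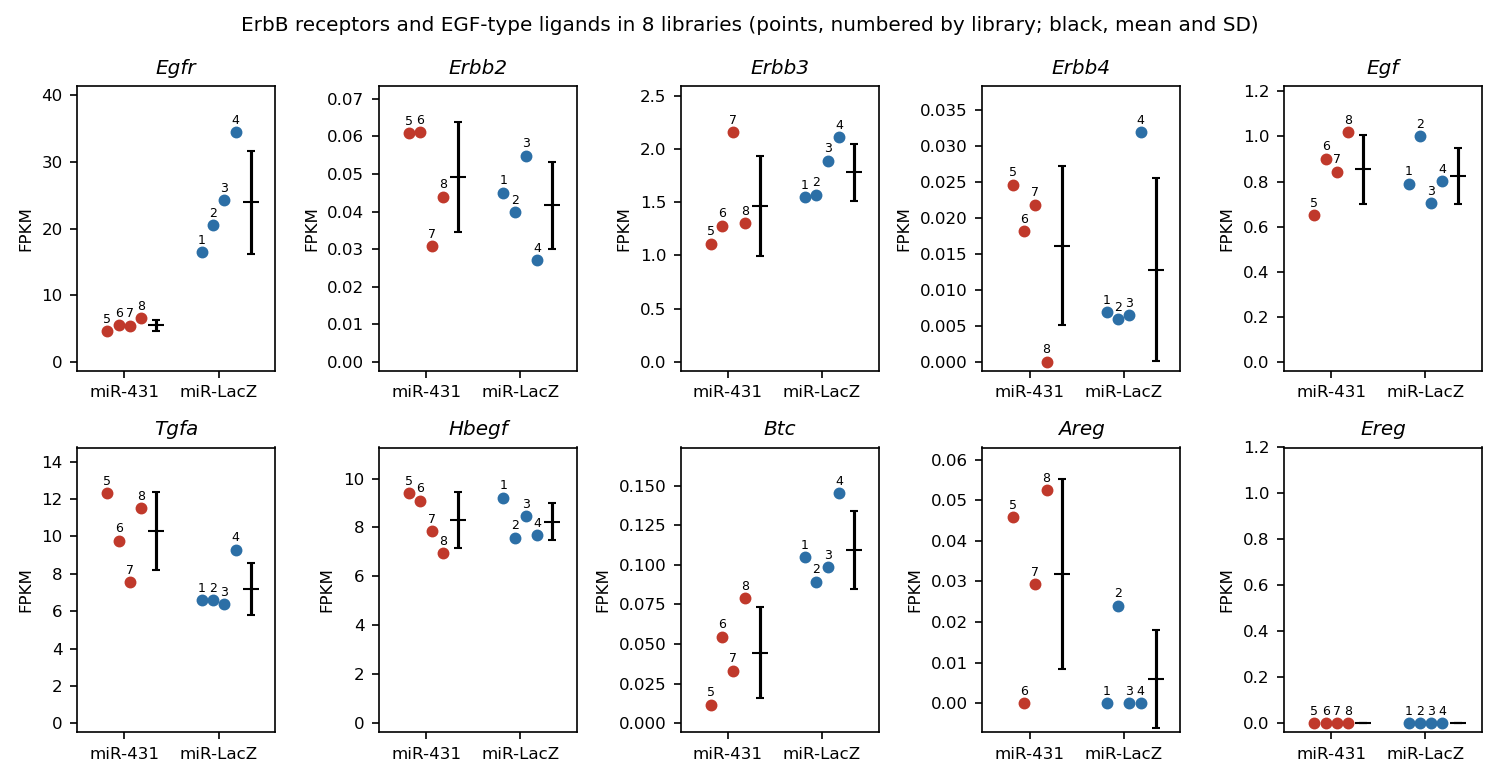
FPKM of each ErbB receptor and EGF-type ligand gene in the 4 miR-431 libraries (left, red) and the 4 miR-LacZ libraries (right, blue), with library numbers above the points and the mean and SD in black. Every panel has its own linear scale. Egfr lies at 4.56 to 6.59 FPKM in miR-431, against 16.5 to 34.5 FPKM in miR-LacZ, and Ereg is at 0 in all 8 libraries.

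Erbb3 was the next most abundant receptor and did not pass the threshold. It stood at 1.11, 1.28, 2.16 and 1.30 FPKM in the miR-431 libraries, 5 to 8, against 1.55, 1.57, 1.89 and 2.11 FPKM in the miR-LacZ libraries, 1 to 4. The groups overlapped because miR-431 library 7 was the highest of all 8, while the other 3 miR-431 libraries lay below every miR-LacZ library. The log2 fold change came to −0.19 (SE 0.139; limma adjusted p = 0.334), with an interval of 2 SE from −0.47 to 0.09. Without miR-431 library 7 it was −0.32 (SE 0.111, limma adjusted p = 0.0682). Erbb3 lies on chromosome 10 (128006423 to 128026557, mm9).

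Erbb2 and Erbb4 were close to the limit of detection in both groups. Erbb2 was at 0.0608, 0.0612, 0.0308 and 0.0440 FPKM in the miR-431 libraries, 5 to 8, against 0.045, 0.0399, 0.0549 and 0.0270 FPKM in the miR-LacZ libraries, 1 to 4. With the value of 1 fragment taken as above, these correspond to about 5 to 12 fragments in miR-431 and 5 to 10 in miR-LacZ libraries. Mien1, whose locus overlaps that of Erbb2, stood at 104 to 143 FPKM in miR-431, against 123 to 215 FPKM in miR-LacZ libraries, so even these few fragments are uncertain. Erbb4 was at 0.0246, 0.0181, 0.0218 and 0 FPKM in the miR-431 libraries, 5 to 8, against 0.00685, 0.00590, 0.00649 and 0.0319 FPKM in the miR-LacZ libraries, 1 to 4, at most about 14 fragments. The groups overlapped for both genes, and both were below the level needed for the test. Erbb2 lies on chromosome 11 (98273797 to 98300302, mm9) and Erbb4 on chromosome 1 (68086539 to 69154633, mm9).

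Egfr was the most abundant receptor transcript in all 8 libraries, but its lead over Erbb3 was smaller in miR-431 cells. If the values are FPKM, they are scaled to transcript length, and levels of different genes can be set side by side. Egfr made up 79.3%, 80.1%, 71.0% and 83.1% of the summed receptor FPKM in the miR-431 libraries, 5 to 8, against 91.1%, 92.7%, 92.6% and 94.1% in miR-LacZ libraries 1, 2, 3 and 4. The ratio of Egfr to Erbb3 levels was 2.51 to 5.08 in miR-431 and 10.6 to 16.4 in miR-LacZ libraries. The summed level of the 4 receptors was 7.04 ± 0.980 FPKM in miR-431, against 25.8 ± 8.0 FPKM in miR-LacZ cells (SD, n = 4 each), with Egfr the largest term in both. Erbb2 came after Erbb3 in the order of levels and Erbb4 last by group means. In miR-LacZ cells Erbb2 was above Erbb4 in libraries 1, 2 and 3 and below it in library 4. The difference between these genes was not tested.

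Tgfa, which encodes transforming growth factor alpha, was the most abundant ligand transcript in miR-431 cells by its mean. It stood at 12.3, 9.77, 7.56 and 11.5 FPKM in the miR-431 libraries, 5 to 8, against 6.58, 6.60, 6.36 and 9.29 FPKM in the miR-LacZ libraries, 1 to 4. The groups overlapped only in that miR-LacZ library 4 was above miR-431 library 7. The means were 10.3 ± 2.11 FPKM in miR-431, against 7.21 ± 1.40 FPKM in miR-LacZ cells (SD, n = 4 each), so miR-431 stood at 143% of the miR-LacZ level. The log2 fold change was 0.45 (SE 0.157, interval of 2 SE from 0.14 to 0.77), and it narrowly missed the threshold (limma adjusted p = 0.0527, exact two-sided permutation p = 0.0571). Tgfa passed without miR-LacZ library 4 (0.57, SE 0.145, limma adjusted p = 0.0195), without miR-431 library 7 (0.58, SE 0.139, limma adjusted p = 0.0167) and with library weights (0.55, SE 0.0994, limma adjusted p = 0.00122). Over all settings its adjusted p ranged from 0.00122 to 0.21, and it was highest without libraries 1 and 5 (0.34, SE 0.181).

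Hbegf, which encodes heparin-binding EGF-like growth factor, showed the smallest difference among the tested genes of the family. It was at 9.39, 9.09, 7.84 and 6.94 FPKM in the miR-431 libraries, 5 to 8, against 9.22, 7.58, 8.47 and 7.68 FPKM in the miR-LacZ libraries, 1 to 4. The ranges overlapped almost wholly, with a log2 fold change of 0.01 (SE 0.109, interval of 2 SE from −0.21 to 0.22, limma adjusted p = 0.968). Its sign changed in 6 of the 19 alternatives. Hbegf lies on chromosome 18 (36664580 to 36675459, mm9) and Tgfa on chromosome 6 (86145244 to 86225443, mm9). Tgfa and Hbegf did not differ from each other beyond their spread in either group, and the ratio of Tgfa to Hbegf was 0.965 to 1.66 in miR-431 and 0.713 to 1.21 in miR-LacZ libraries. By counting fragments as above, about 1100 to 1900 Tgfa fragments were read per miR-431 library and 890 to 1500 per miR-LacZ library, so counting error is small beside the spread between libraries for Tgfa.

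**Figure D2:**
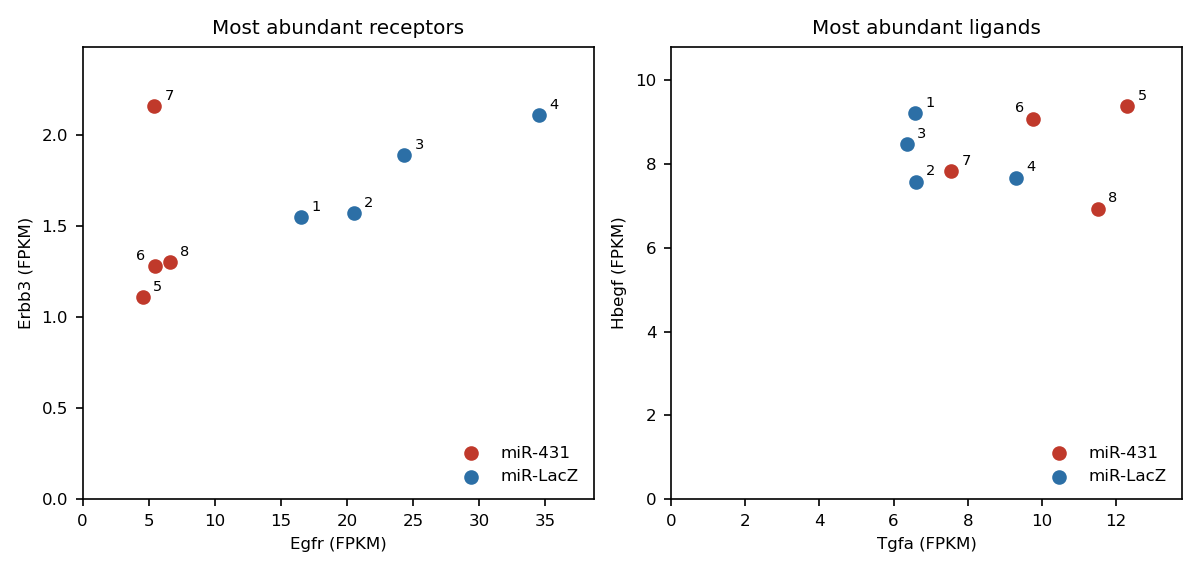
Erbb3 against Egfr (left) and Hbegf against Tgfa (right), in FPKM on linear axes from 0, with 1 point per library numbered as in the labels (red, miR-431; blue, miR-LacZ). The miR-431 libraries sit at 4.56 to 6.59 FPKM of Egfr, apart from the miR-LacZ libraries at 16.5 to 34.5 FPKM, while the groups overlap along the other 3 axes.

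Egf itself (chromosome 3, 129380492 to 129466800, mm9) was at a low level that did not differ visibly between the groups. Its values were 0.651, 0.901, 0.843 and 1.02 FPKM in the miR-431 libraries, 5 to 8, against 0.791, 1.00, 0.705 and 0.802 FPKM in the miR-LacZ libraries, 1 to 4. It reached 1 FPKM in 2 of the 8 libraries and was therefore below the level needed for the test. With no level filter its log2 fold change came to 0.02 (SE 0.0763; limma adjusted p = 0.869).

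Btc, Areg and Ereg lie close together on chromosome 5 and were nearly silent. Btc (91786286 to 91832020, mm9) was at 0.0117, 0.0547, 0.0331 and 0.0788 FPKM in the miR-431 libraries, 5 to 8, against 0.105, 0.0894, 0.0984 and 0.145 FPKM in the miR-LacZ libraries, 1 to 4. Every miR-431 library was below every miR-LacZ library, at about 1 to 8 fragments in miR-431 and 9 to 15 in miR-LacZ libraries. The exact two-sided permutation test gave p = 0.0286, and with no level filter Btc passed at a log2 fold change of −0.09 (SE 0.0237, limma adjusted p = 0.0348), a setting under which 21.0% of 18903 genes passed. Areg (91568640 to 91577458), which encodes amphiregulin, was above 0 in 3 miR-431 libraries (0.0459, 0.0293 and 0.0525 FPKM in libraries 5, 7 and 8) and in 1 miR-LacZ library (0.0240 FPKM in library 2), at no more than about 2 fragments. Ereg (91503642 to 91522675), which encodes epiregulin, was listed at 0 in all 8 libraries. The 5 other EGF-family ligands were also below the level tested. Among them, Nrg4 was at 0.5 ± 0.156 FPKM in miR-431, against 0.413 ± 0.063 FPKM in miR-LacZ cells, and Nrg1 was at 0.195 ± 0.049 FPKM in miR-431, against 0.292 ± 0.078 FPKM in miR-LacZ cells. Nrg2 was at 0.102 FPKM or less in miR-431 and 0.118 FPKM or less in miR-LacZ libraries, Nrg3 at 0.0415 FPKM or less in miR-431 and 0.0207 FPKM or less in miR-LacZ libraries, and Epgn was listed at 0 in all 8.

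Counted together, 4 of the 10 genes (Egfr, Erbb3, Tgfa and Hbegf) reached the tested level of 1 FPKM in at least 4 libraries, and of these 0 rose and 1 fell. Of all 11807 tested genes 29.3% were called in either direction, 15.4% higher and 13.8% lower, so 1 call among 4 genes is near the background. The groups did not overlap for Egfr and Btc, that is 2 of the 9 genes above 0 in any library, against 25.5% of all 18903 such genes. Exact permutation tests were run for these 9 genes, and their p-values are not adjusted.

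**Figure D3:**
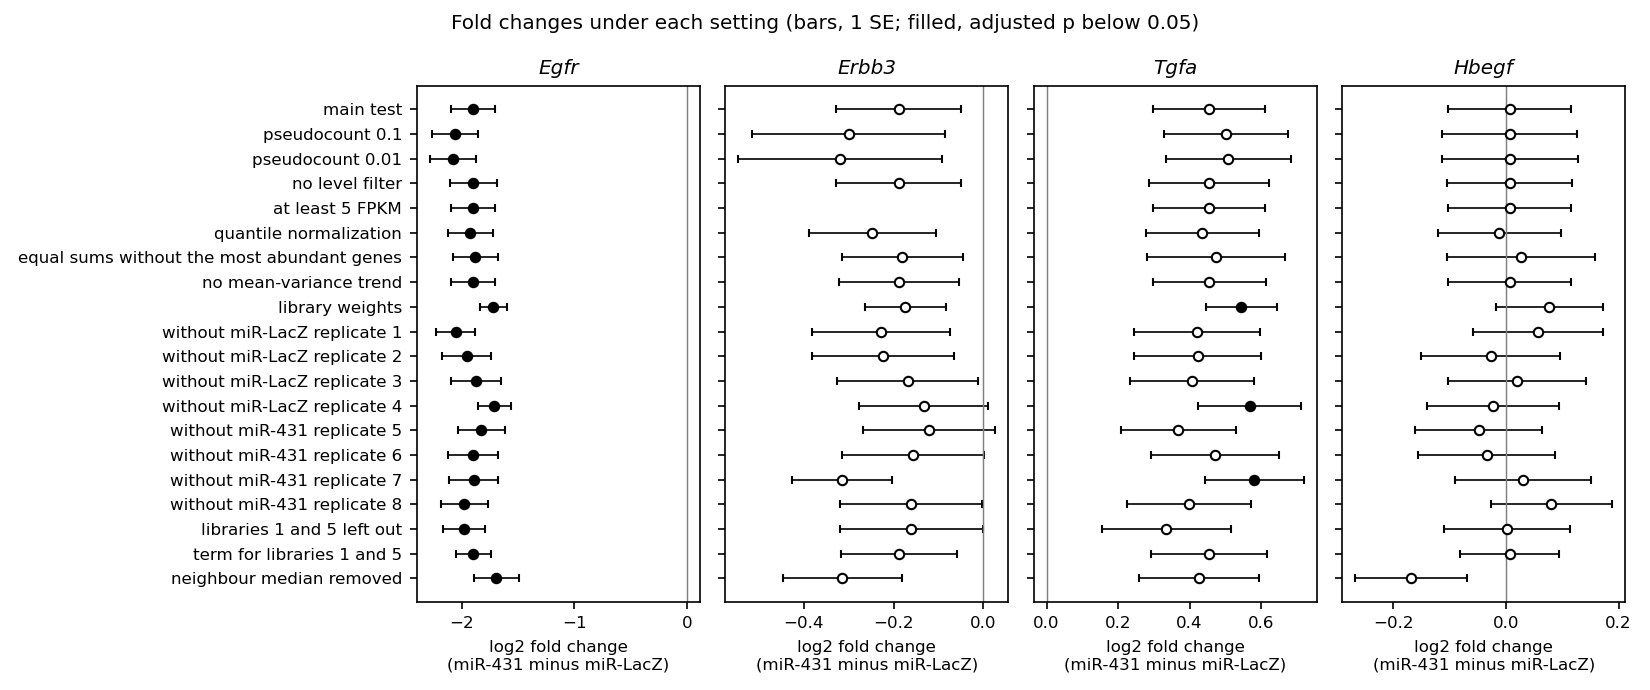
Log2 fold change (miR-431 minus miR-LacZ, each panel with its own axis) of the 4 tested genes in the main test and under each alternative, with bars of 1 SE and filled points where the limma adjusted p was below 0.05. Egfr is filled throughout, between −2.08 and −1.69, and Tgfa is filled in 3 settings. Erbb3 has no point at the filter of 5 FPKM, which it did not reach.

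Genes that release the ligands were examined next, since the ligand precursors need a protease. Of 8 tested genes of ligand shedding and trafficking, 2 rose and 2 fell (50% called, against 29.3% of all tested genes), and the median log2 fold change was 0.05 against −0.01 over all tested genes. Adam17, the main sheddase of Tgfa, Hbegf and Areg, averaged 8.63 ± 0.858 FPKM in miR-431, set against 11.3 ± 1.21 FPKM in miR-LacZ cells (log2 fold change −0.35, SE 0.101, limma adjusted p = 0.0284). Rhbdf2, which encodes the iRhom2 protein that Adam17 needs for its maturation, fell to 1.61 ± 0.217 FPKM in miR-431, against 2.82 ± 0.556 FPKM in miR-LacZ cells (log2 fold change −0.55, limma adjusted p = 0.00870). Rhbdl2, a rhomboid protease of the cell surface, was higher, at 22.8, 20.4, 25.1 and 23.2 FPKM in the miR-431 libraries, 5 to 8, against 14.4, 13.2, 15.5 and 15.3 FPKM in the miR-LacZ libraries, 1 to 4 (0.61, limma adjusted p = 0.000928). Bace1, a protease that processes neuregulin 1, rose to 61.9 ± 5.37 FPKM in miR-431, against 46.8 ± 1.16 FPKM in miR-LacZ cells (log2 fold change 0.39, limma adjusted p = 0.00726). Adam10, which releases Egf and Btc, averaged 31.8 FPKM in miR-431, set against 27.2 FPKM in miR-LacZ cells and did not pass (0.22, limma adjusted p = 0.264). The call of Adam17 ended in 6 of the 8 fits with a single library omitted (all but miR-LacZ 3 and miR-431 5, limma adjusted p from 0.0554 to 0.0756). Once the median of neighbouring genes was subtracted, Adam17 stood at −0.23 and Bace1 at 0.23, and neither passed (limma adjusted p = 0.119 and 0.122).

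Genes that act directly beneath the receptors moved in both directions. Of 21 tested adaptor and proximal signalling genes, 17 did not pass, 3 rose and 1 fell (19.0% called, against 29.3% of all tested genes), with a median of 0.20 against −0.01 over all tested genes. Shc1, an adaptor that links the receptors to Ras, was at 46.6, 52.3, 49.8 and 57.2 FPKM in the miR-431 libraries, 5 to 8, against 36.5, 38.4, 32.4 and 33.5 FPKM in the miR-LacZ libraries, 1 to 4 (log2 fold change 0.54, limma adjusted p = 0.00225). Once the median of neighbouring genes was subtracted, Shc1 stood at 0.23 and did not pass (limma adjusted p = 0.0967). Gab2, a docking protein for PI3 kinase, rose to 3.50 ± 0.395 FPKM in miR-431, against 2.17 ± 0.184 FPKM in miR-LacZ cells (log2 fold change 0.50, limma adjusted p = 0.00409). Erbb2ip, whose product erbin binds Erbb2, averaged 10.5 ± 1.54 FPKM in miR-431, set against 7.54 ± 1.21 FPKM in miR-LacZ cells (log2 fold change 0.43, limma adjusted p = 0.0299). Its call ended in 4 of the 8 fits with a single library omitted (library 2, 3, 5 or 8, limma adjusted p from 0.0573 to 0.0805). Eps8, a substrate of the Egfr kinase, fell to 34.9 ± 0.578 FPKM in miR-431, against 50.2 ± 3.74 FPKM in miR-LacZ cells (log2 fold change −0.51, limma adjusted p = 0.00120). Grb2, the adaptor that brings Sos proteins to the receptors, averaged 36.8 FPKM in miR-431, set against 41.0 FPKM in miR-LacZ cells and did not pass (−0.15, limma adjusted p = 0.172).

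Most genes that restrain or remove the receptors did not pass. Of 21 tested inhibitor, ubiquitin ligase and endocytosis genes, 17 did not pass, 3 rose and 1 fell (19.0% called, where 29.3% of all tested genes were), and the median log2 fold change was 0.00, close to −0.01 over all tested genes. Socs5, which promotes degradation of Egfr, rose, with the largest log2 fold change among the 60 tested pathway genes. It was at 8.44, 8.30, 9.44 and 6.84 FPKM in the miR-431 libraries, 5 to 8, against 3.14, 2.62, 2.34 and 0.840 FPKM in the miR-LacZ libraries, 1 to 4 (log2 fold change 1.57, SE 0.223, limma adjusted p = 0.000761). Lrig1, a membrane protein that lowers ErbB receptor levels, also rose, at 9.04, 8.80, 9.48 and 8.81 FPKM in the miR-431 libraries, 5 to 8, against 5.99, 5.89, 5.75 and 3.87 FPKM in the miR-LacZ libraries, 1 to 4 (0.67, SE 0.121, limma adjusted p = 0.00288). Both kept their call in every alternative that was run, and in both the lowest library of all 8 was miR-LacZ 4. These are RNA levels, and a link of either gene to the level of Egfr was not tested. Sh3kbp1, an adaptor of the Cbl ubiquitin ligases, averaged 16.4 ± 1.74 FPKM in miR-431, set against 13.1 ± 1.02 FPKM in miR-LacZ cells (log2 fold change 0.30, limma adjusted p = 0.0409). Eps15, which takes part in endocytosis of the receptors, averaged 11.7 ± 0.544 FPKM in miR-431, set against 14.8 ± 0.912 FPKM in miR-LacZ cells (log2 fold change −0.32, limma adjusted p = 0.0147). Errfi1, an inhibitor of the Egfr kinase, averaged 8.91 FPKM in miR-431, set against 11.4 FPKM in miR-LacZ cells and did not pass (−0.33, limma adjusted p = 0.0626). The call of Sh3kbp1 ended in 6 of the 8 fits with a single library omitted (all but miR-LacZ 4 and miR-431 7, limma adjusted p from 0.0543 to 0.114).

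Of 10 tested chaperone and co-receptor genes, 2 rose and 1 fell, which is 30% against 29.3% of all tested genes. Sdc4, which encodes a heparan sulfate proteoglycan of the cell surface, fell to 3.30 ± 0.625 FPKM in miR-431, against 6.33 ± 1.94 FPKM in miR-LacZ cells (log2 fold change −0.74, limma adjusted p = 0.0143). Once the median of neighbouring genes was subtracted, Sdc4 no longer passed (−0.58, limma adjusted p = 0.0644). Gpc1, another heparan sulfate proteoglycan, rose to 22.7 ± 1.5 FPKM in miR-431, against 16.0 ± 1.84 FPKM in miR-LacZ cells (log2 fold change 0.48, limma adjusted p = 0.00495). Stub1, a ubiquitin ligase that works with Hsp90 clients such as Erbb2, averaged 159 ± 10.2 FPKM in miR-431, set against 128 ± 13.1 FPKM in miR-LacZ cells (log2 fold change 0.31, limma adjusted p = 0.0420). The call of Stub1 ended in 7 of the 8 fits with a single library omitted (all but miR-LacZ 2, limma adjusted p from 0.0508 to 0.124), and it stood at 0.13 (limma adjusted p = 0.291) once that median was subtracted.

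**Figure D4:**
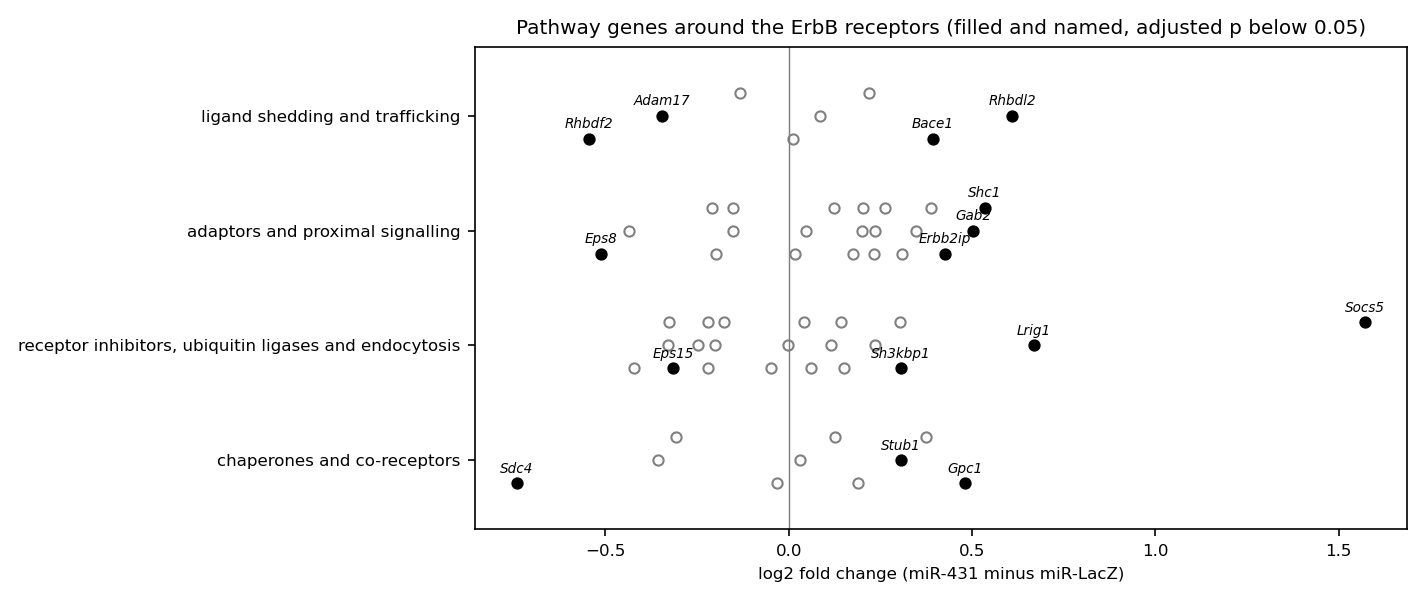
Log2 fold change (miR-431 minus miR-LacZ) of each tested gene in 4 lists of pathway genes, 1 row per list with points spread vertically for legibility. Filled and named points had a limma adjusted p below 0.05. Socs5 lies farthest to the right at 1.57 and Sdc4 farthest to the left at −0.74, and the fifth list, of other EGF-family ligands, had 0 tested genes.

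The chromosome around Egfr was examined because fold changes of neighbouring genes can shift together. Of the 25 tested genes within 5 Mb of the start of Egfr, 2 rose and 7 fell, where 15.4% of all tested genes rose and 13.8% fell. The log2 fold changes of the 25 genes ran from −0.61 to 0.63, with a median of −0.14. Egfr, at −1.90, lay outside that range. The nearest tested gene before it, Sec61g, which encodes a subunit of the protein translocation channel, averaged 241 ± 34.1 FPKM in miR-431, set against 324 ± 65.9 FPKM in miR-LacZ cells and did not pass (−0.42, limma adjusted p = 0.0700). The nearest after it, 2810442I21Rik, averaged 0.978 ± 0.147 FPKM in miR-431, set against 1.07 ± 0.319 FPKM in miR-LacZ cells (log2 fold change −0.06, limma adjusted p = 0.759). Of the 7 genes that fell, Fbxo48 (−0.25), Pno1 (−0.61), Wdr92 (−0.53), C1d (−0.42) and Etaa1 (−0.37) started within 1.19 Mb after the start of Egfr. Cep68 (−0.33) and Ugp2 (−0.40) lay farther away, and the 2 that rose were Ddc (0.28) and Lgalsl (0.41). The running median over 31 genes at Egfr was −0.21, and with it removed the log2 fold change of Egfr was −1.69 (SE 0.200, limma adjusted p = 0.000438). The same median was 0.18 at Hbegf, 0.12 at Erbb3 and 0.03 at Tgfa. The nearest tested neighbours of these 3 genes did not pass either. They were Pfdn1 (−0.08) and Ankhd1 (0.16) at Hbegf, Pa2g4 (−0.04) and Rps26 (−0.13) at Erbb3, and Add2 (0.35) and Fam136a (−0.27) at Tgfa, with limma adjusted p from 0.0812 to 0.693.

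**Figure D5:**
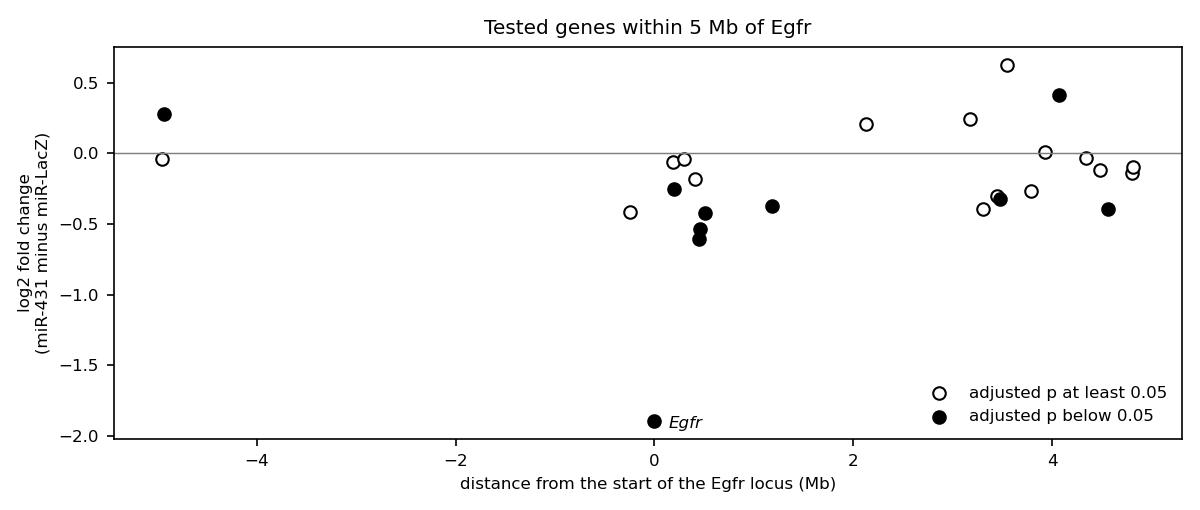
Log2 fold change (miR-431 minus miR-LacZ) of the tested genes within 5 Mb of Egfr against the distance of their start from that of Egfr, in Mb. Filled points had a limma adjusted p below 0.05. The 25 neighbours lie between −0.61 and 0.63 and Egfr at −1.90.

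The 3 tested genes whose levels followed Egfr most closely over the 8 libraries were Gal, Snx5 and Xpnpep2, each with a Pearson correlation of 0.996 on the log2(FPKM + 1) scale. This is a description of 8 libraries that share the difference between the groups, and 327 tested genes had a correlation above 0.95. Gal, which encodes the neuropeptide galanin, averaged 5.07 ± 0.632 FPKM in miR-431, set against 18.3 ± 5.51 FPKM in miR-LacZ cells (log2 fold change −1.63, limma adjusted p = 0.000148). Snx5, a sorting nexin, averaged 55.8 ± 2.93 FPKM in miR-431, set against 110 ± 20.1 FPKM in miR-LacZ cells (log2 fold change −0.95, limma adjusted p = 0.000517). Xpnpep2, a membrane aminopeptidase, averaged 2.30 ± 0.272 FPKM in miR-431, set against 7.05 ± 1.96 FPKM in miR-LacZ cells (log2 fold change −1.26, limma adjusted p = 0.000416).

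The labels were checked against the data. Mir431 was at 18114 to 37768 FPKM in the miR-431 libraries and listed at 0 in the miR-LacZ libraries, although FPKM is no dependable amount for a gene this short. The 12 beta cell markers summed to 23200 to 36800 FPKM in miR-431, against 27500 to 44500 FPKM in miR-LacZ libraries, most of it Ins2 and Iapp, and the 4 that were called are given with Egfr. Of the duct markers Krt7 was at 89.6 to 197 FPKM in miR-431, against 78.2 to 132 FPKM in miR-LacZ libraries, whereas Krt19 was at 0.0414 FPKM or less and Sox9 at 0.0124 FPKM or less in every library. Markers of leukocytes summed to 1.62 FPKM or less in miR-431 and 1.21 FPKM or less in miR-LacZ libraries, and endothelial markers to 1.42 to 2.89 FPKM in miR-431, against 0.606 to 0.866 FPKM in miR-LacZ libraries. Most of the endothelial sum was Plvap, and without it the sums were 0.0745 to 0.127 FPKM in miR-431, against 0.136 to 0.197 FPKM in miR-LacZ libraries.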

How the data were processed

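RNA of 8 libraries was read as pairs of 51 bases on an Illumina sequencer after TruSeq library preparation, per the labels' protocols. The authors deposited 1 table of values per gene, taken here as FPKM. The build mm9 and the tools Cufflinks 2.1.1, TopHat2 2.0.11, cutadapt and CASAVA 1.8.2 are named, without roles, in the submitters' processing notes. No strand setting or between-library scaling is given in the sources used here, but the upper quartile lay between 14.5 and 14.7 FPKM in every library. Depth is not given. The commonest low value times transcript length, taken as 1 fragment, was 0.0264 to 0.0319 in miR-431 and 0.026 to 0.0334 in miR-LacZ libraries (FPKM times kb), and fragment numbers in the text are approximate and cover counting error only.

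The 11807 genes that reached 1 FPKM in 4 or more of the 8 libraries were fitted on log2(FPKM + 1) with limma 3.58.1 (R 4.3.3), a scale that understates the change of low genes, with a mean-variance trend and no covariate. A gene was called when its p, adjusted by Benjamini-Hochberg over all tested genes, was below 0.05. Single genes were also compared by exact two-sided permutation tests (scipy 1.17.1). Alternatives changed the pseudocount (0.1, 0.01), filter (none, 5 FPKM), scaling, variance model and weights, left out each library or libraries 1 and 5, added a term for these 2, and removed the running median over 31 genes along the chromosome. No 2 libraries held near-identical values.

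The members, lists and alternatives were chosen with earlier results of these data known. The text names all 10 members, up to 4 called genes per list, all of the other EGF-family ligands, the nearest tested neighbours of each tested member, and the 3 genes most correlated with each called member. Adam10, Grb2, Errfi1, the overlapping gene Mien1, the called genes within 5 Mb of Egfr and single cell type markers were added to the text with their values known. So were Adam19, Gab1, Shc3, Spry1, Spry4 and Muc4. Seed matches used GENCODE M21 (GRCm38) transcripts for sequence only, since coordinates of the table are in mm9.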

Additional observations from a re-analysis of the deposited data

Results flagged for a closer look

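In a group of 4 libraries, 1 library was set apart when its gap to the nearest other, as a share of the group's range, exceeded Dixon's critical value. For normally distributed values chance alone gives this in about 1 of 20 groups, and 55 groups were looked at. Tgfa in miR-LacZ library 4 was 9.29 FPKM, against 6.36 to 6.60 FPKM in the other 3 miR-LacZ libraries. Lrig1 in the same library was 3.87 FPKM, against 5.75 to 5.99 FPKM in the others. Erbb4 in that library was 0.0319 FPKM, against 0.00590 to 0.00685 FPKM. Areg was 0.0240 FPKM in miR-LacZ library 2 and listed at 0 in the other 3. Erbb4 and Areg rest on few fragments per library or none, so the stated chance rate need not hold for them. Xpnpep2 was 2.70 FPKM in miR-431 library 8, against 2.14 to 2.19 FPKM in the other 3 miR-431 libraries.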

How the results depend on the processing

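No paired analysis was run, because the 2 groups share no replicate numbers in the labels. Among the miR-LacZ libraries, miR-431 libraries 5, 6 and 7 correlated best with 1, 2 and 3 (Pearson on a log2 scale, 0.9835, 0.9794 and 0.9808). Library 8 correlated best with miR-LacZ library 2 (0.9811), not 4 (0.9757). Whether libraries of the 2 groups were handled together was not tested. Egfr kept its direction and its call in all 19 alternatives, and Erbb3 stayed below the threshold in each of the 18 that could be fitted. Of the family, 0 genes were called higher and 1 lower in the main test. That became 1 higher with library weights, and 0 to 1 higher and 1 lower over the fits that left out 1 library (1 without miR-LacZ 4 or miR-431 7, Tgfa in each case), and 2 lower with no level filter, which added Btc. Hbegf, at 0.01 in the main test, changed sign with quantile normalization (−0.012), with the neighbour median removed (−0.168), and when library 2 (−0.027), 4 (−0.022), 5 (−0.048) or 6 (−0.034) was left out. Its range over the 8 fits with 1 library left out was −0.048 to 0.081, and it passed the threshold in no setting. Over all genes, 3454 were called in the main test, 5845 with library weights, 2262 with the neighbour median removed, and 2480 to 3350 with 1 library left out. Over the pathway lists, 10 genes rose and 5 fell in the main test. With no level filter, the only setting that fitted pathway genes below the tested level, 13 rose and 5 fell. With library weights 16 rose and 15 fell, 8 fell with a term for libraries 1 and 5, and 3 fell with the filter of 5 FPKM, with equal sums and with the neighbour median removed. With 1 library left out, 7 to 10 rose and 4 to 7 fell. Among the pathway genes below the tested level, Adam19, Gab1, Shc3, Spry1, Spry4 and Muc4 were higher in every miR-431 than in every miR-LacZ library. All of them were below 1 FPKM, and the groups overlapped for the other such genes. Of all 18903 genes above 0 in any library, 25.5% had groups that did not overlap. Beside the cases given with each gene, the calls of Adam17, Erbb2ip, Sh3kbp1 and Eps15 ended with equal sums (limma adjusted p = 0.113, 0.0716, 0.0907 and 0.0655), those of Erbb2ip and Sh3kbp1 with no level filter (0.0541 and 0.0517), and those of Sh3kbp1 and Stub1 without libraries 1 and 5 (0.0894 and 0.0667). The causes were not tested. Egf, Erbb2, Erbb4, Btc and Areg rest on low values, and Erbb2, Erbb4, Btc and Areg on 15 fragments or fewer per library, so differences of these 4 genes were at most barely detectable at this depth.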
